A study of Homo sapiens with 6 samples.

Results

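The checkpoint ligands described here are 10 surface proteins through which a tumour cell or an antigen-presenting cell speaks to T cells, NK cells or macrophages: CD274 (PD-L1), PDCD1LG2 (PD-L2), CD276 (B7-H3), ICOSLG, VTCN1 (B7-H4), HHLA2, CD86, NECTIN2, PVR and CD47. They were taken by gene name from a table of 58825 genes. Of the 10 genes, 9 had a count in at least 1 library, and 8 passed the filter on low counts that left 20295 genes for testing. VTCN1 and HHLA2 did not pass it.

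RNA-seq had been performed on NCI-H460 cells, a human lung cancer line grown in RPMI-1640, after lentiviral infection with shRNA against GFP (NC-shRNA, 3 libraries) or against PRMT5 (PRMT5-shRNA, 3 libraries). PRMT5 is the main enzyme that places symmetric dimethyl groups on arginine, including on histones. Per the study's methods the knockdown cells were a stable, puromycin-selected line, and 3 hairpins against human PRMT5 had been designed. Which of them was sequenced is not given by the labels, and although the study describes the libraries of a group as biological replicates, the labels do not say whether they came from separate cultures, so p-values measure the spread between these libraries only. PRMT5 itself was at 133 ± 8.90 CPM (counts scaled to the TMM-adjusted library size) (SD, n = 3) in NC-shRNA cells and 43.2 ± 4.28 CPM (SD, n = 3) after its knockdown, and edgeR gave -1.62 on the log2 scale with a standard error of 0.0943 (adjusted p = 0.0063).

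Ligands of the B7 family are immunoglobulin-like membrane proteins. CD86 and ICOSLG deliver costimulation through CD28 and ICOS, PD-L1 and PD-L2 bind the inhibitory receptor PD-1, and CD276, VTCN1 and HHLA2 are mostly described as inhibitory. PVR and NECTIN2 are adhesion molecules of the nectin and nectin-like family, shared by the activating receptor CD226 and the inhibitory receptor TIGIT. CD47 binds SIRPA on macrophages and restrains phagocytosis. Interferon gamma, acting through JAK kinases and IRF1, is the best known inducer of PD-L1. The purpose of the comparison was to set the abundance of CD274 and its difference after PRMT5 knockdown against the other ligands on the same cells.

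The CD274 gene (ENSG00000120217) occupies chromosome 9 from 5450503 to 5470566 on the plus strand of GRCh38 (GENCODE release 29), and PDCD1LG2 (ENSG00000197646), from 5510570 to 5571254 on the same strand, starts 40004 bases after its end. The stretch before the CD274 gene is shown because it holds letters of the kind that STAT and IRF factors bind, and the interferon pathway is described further on. It is the RefSeq sequence of chr9:5450292-5450502 (GRCh38.p14, plus strand), and the capitals mark the matches.
CD274 upstream: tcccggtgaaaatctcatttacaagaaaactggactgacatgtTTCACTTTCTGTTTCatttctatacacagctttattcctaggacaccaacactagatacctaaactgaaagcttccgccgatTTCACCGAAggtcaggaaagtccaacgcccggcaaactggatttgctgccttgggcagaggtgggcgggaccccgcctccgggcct
The letters TTCNNNGAA, which read the same on both strands (a GAS-type motif, bound by STAT dimers), and GAAANNGAA or TTCNNTTTC on the other strand (an IRF-type motif) were searched in windows from 250 bases before to 50 bases after each RefSeq start. The GAS letters matched once in the CD274 window, 125 bases before the RefSeq start. The IRF letters matched there at 2 positions that overlap each other, 207 and 201 bases before it. A window was listed for 9 of the 10 ligands, and apart from CD274 only 1 window of HHLA2 held a match, of the IRF letters. In all 35116 RefSeq windows, 7.66% held the GAS letters and 8.11% the IRF letters.

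In both groups the ligands spanned from undetected to the upper part of the tested genes. Levels of different genes are compared here as FPKM, the deposited value per kilobase of transcript and library size. In NC-shRNA cells the most abundant were CD276 at 7.60 ± 5.11 FPKM, PVR at 6.59 ± 0.226 and NECTIN2 at 6.42 ± 0.368 (SD, n = 3), and their ranges over libraries overlapped. CD47 followed at 2.69 ± 0.151 FPKM and was separate from its neighbours in the order. ICOSLG at 0.72 ± 0.208 and CD274 at 0.577 ± 0.0289 FPKM overlapped each other, and PDCD1LG2 lay below both at 0.33 ± 0.128 FPKM. This level of ICOSLG leaves out FP565260.3, a copy of its coding sequence described further on, which was at 0.923 ± 0.357 FPKM. The place of ICOSLG in the order therefore depends on how reads were divided between it and the copy. CD86 at 0.03 ± 0.0265 FPKM was close to the detection limit, and VTCN1 and HHLA2 were listed at 0. CD274 was thus a scarce transcript in control cells: 31.2% of tested genes had a lower mean FPKM, against 77.3% for CD276, 74.7% for PVR and 74.1% for NECTIN2. CD276, PVR and NECTIN2 were 13.2, 11.4 and 11.1 times as abundant as CD274.

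In PRMT5-shRNA cells the order of the ligands, with the copy of ICOSLG left out, differed at 2 places. PVR came first at 11.7 ± 3.82 FPKM, ahead of CD276 at 6.93 ± 4.5 and NECTIN2 at 6.10 ± 0.490, although the range of CD276 overlapped those of both. CD47 was at 3.31 ± 0.0557 FPKM. CD274 at 1.12 ± 0.0971 FPKM was separate from both of its neighbours, above PDCD1LG2 at 0.44 ± 0.231 and ICOSLG at 0.29 ± 0.101, which overlapped each other. The copy of ICOSLG, again left out of its level, was at 0.613 ± 0.115 FPKM. CD86 at 0.05 ± 0.0200 overlapped VTCN1 at 0.04 ± 0.0200, and HHLA2 was again listed at 0. The mean of CD274 now exceeded that of 40.1% of tested genes, and PVR was 10.5, CD276 6.17, NECTIN2 5.43 and CD47 2.95 times as abundant as CD274.

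**Figure D1:**
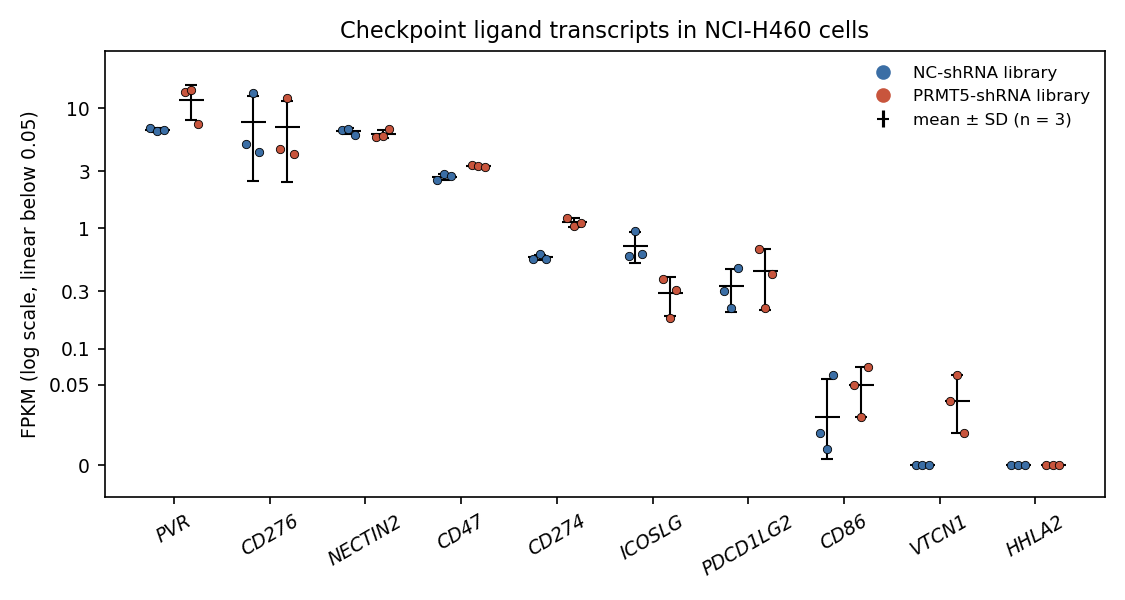
FPKM of the 10 ligands (log axis, linear below 0.05) in each NC-shRNA (blue) and PRMT5-shRNA (red) library, with mean and SD of 3 libraries. CD274 lies between 0.56 and 0.61 FPKM in NC-shRNA libraries and between 1.04 and 1.23 after knockdown, below PVR, CD276, NECTIN2 and CD47 in each library. The level of ICOSLG leaves out its copy.

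None of the 8 tested ligands passed an edgeR quasi-likelihood adjusted p of 0.05, where 0.069% of all tested genes passed in either direction. At an unadjusted p under 0.05 there were 4 (CD274, PVR, CD47 and ICOSLG), where 12.8% of tested genes passed. DESeq2 called 3 (CD274, PVR and ICOSLG) after adjustment, where it called 2.33% of the genes it gave an adjusted p, while limma on log2(FPKM + 1) called 0. With looser thresholds (unadjusted p under 0.05 and more than 1.5-fold), CD274 and PVR were higher, 2 of 8 against 2.53% of tested genes, and ICOSLG was lower, 1 of 8 against 1.29%. The 3 libraries of one group all exceeded the 3 of the other for CD274, PVR and CD47, higher in PRMT5-shRNA cells (11.0% of tested genes), and for ICOSLG, lower in them (10.7% of tested genes). The median log2 fold change of the 8 ligands was 0.30, and that of all tested genes 0.01. In bulk RNA, fewer cells with a transcript and less of it per cell cannot be told apart.

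**Figure D2:**
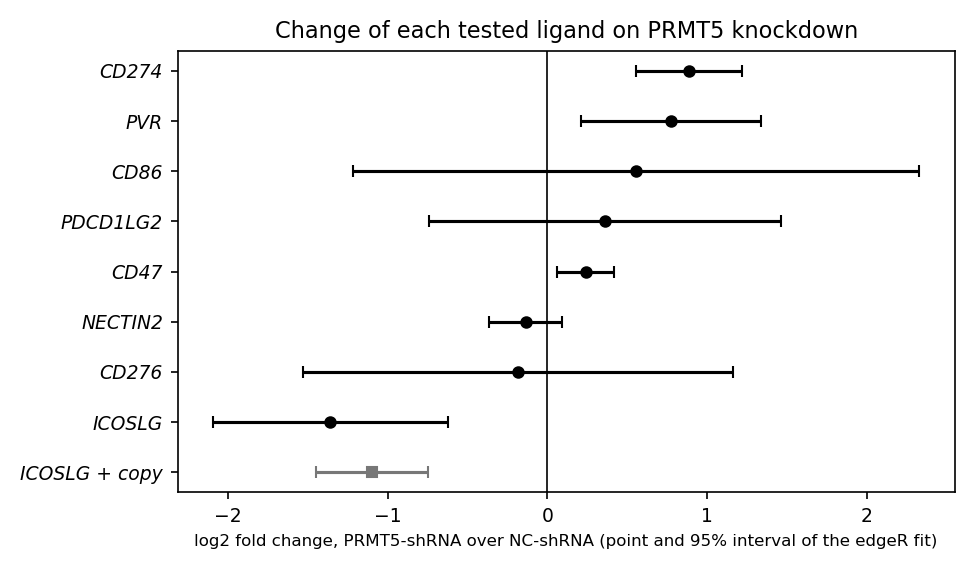
Log2 fold change of each tested ligand, PRMT5-shRNA over NC-shRNA, with the 95% interval of the edgeR fit. The grey square is the sum of ICOSLG and the copy of its coding sequence. The intervals of CD274, PVR and CD47 lie above 0 and that of ICOSLG below 0, and those of CD86, PDCD1LG2, NECTIN2 and CD276 include 0.

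Among the ligands of PD-1, CD274 was higher after knockdown in every library, while PDCD1LG2 was not distinguishable. The CD274 counts were 192, 209 and 170 with NC-shRNA and 317, 345 and 299 after knockdown, or 0.56, 0.61 and 0.56 against 1.23, 1.04 and 1.10 FPKM. The groups did not overlap, and the highest library of a group was only 1.10 times the lowest in NC-shRNA and 1.18 times after knockdown. The mean CPM ratio was 1.85, with a 95% interval of the log2 fold change from 0.56 to 1.22. CD274 ranked 68 of 20295 genes by p, but its edgeR adjusted p was 0.12. The exact two-sided permutation test gave p = 0.10, the smallest that 3 against 3 libraries allow.

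PDCD1LG2, the other PD-1 ligand, had 59, 43 and 81 counts with NC-shRNA and 101, 43 and 66 after knockdown. FPKM was 0.30, 0.22 and 0.47 against 0.68, 0.22 and 0.42, so replicate 2 of both groups sat at the same low level and the groups overlapped. The log2 fold change was 0.36 with a 95% interval from -0.74 to 1.47 (edgeR adjusted p = 0.79), which includes the value of its neighbour CD274. Without PRMT5-shRNA replicate 1 it was -0.087.

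ICOSLG, the ligand of ICOS, was the only tested ligand of which every PRMT5-shRNA library lay below every NC-shRNA library. Its counts were 451, 743 and 418 with NC-shRNA and 222, 140 and 193 after knockdown, or 0.59, 0.96 and 0.61 against 0.38, 0.18 and 0.31 FPKM. Mean CPM was 8.05 ± 2.31 with NC-shRNA and 3.14 ± 1.05 with PRMT5-shRNA (SD, n = 3), so the knockdown mean was 39.0% of the control mean. The log2 fold change was -1.36 (standard error 0.311, 95% interval from -2.10 to -0.62), at an edgeR adjusted p of 0.20.

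The ICOSLG value is uncertain in a particular way, because the reference holds its coding sequence at a second place. ICOSLG (ENSG00000160223) lies on chromosome 21 from 44217014 to 44240966 on the minus strand, and FP565260.3 (ENSG00000277117) on the same chromosome from 5022493 to 5040666 on the plus strand. The coding sequences of a transcript of each, 927 bases long, were identical at 927 of 927 bases. Of all the different 50-base words in the transcripts of the copy, 93.2% also occurred in ICOSLG transcripts, which is 33.7% of the words of ICOSLG. The first 90 coding bases, with the start codon in capitals, are shown because a read from them fits both genes equally well.
ICOSLG and FP565260.3 coding start: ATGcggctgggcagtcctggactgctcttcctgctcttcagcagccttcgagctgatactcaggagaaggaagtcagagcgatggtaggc
The copy had 331, 146 and 256 counts with NC-shRNA and 127, 198 and 110 after knockdown, and its groups overlapped (log2 fold change -0.66, edgeR adjusted p = 0.45).

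The division of reads between ICOSLG and its copy differed widely from library to library. ICOSLG held 57.7%, 83.6% and 62.0% of their joint count with NC-shRNA and 63.6%, 41.4% and 63.7% after knockdown, so replicate 2 was the extreme of both groups, in opposite directions. The joint count was steadier, with 782, 889 and 674 with NC-shRNA and 349, 338 and 303 after knockdown. In CPM this was 11.8 ± 0.994 against 5.50 ± 0.806 (SD, n = 3 each), and the groups stayed apart. The log2 fold change of the sum was -1.10 (standard error 0.147, 95% interval from -1.45 to -0.75), smaller than that of ICOSLG alone and with a smaller error. Its edgeR adjusted p was 0.0902. Leaving out replicate 2 of both groups moved ICOSLG alone to -0.86 (edgeR adjusted p = 0.59). The sum was formed after the counts had been seen.

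**Figure D3:**
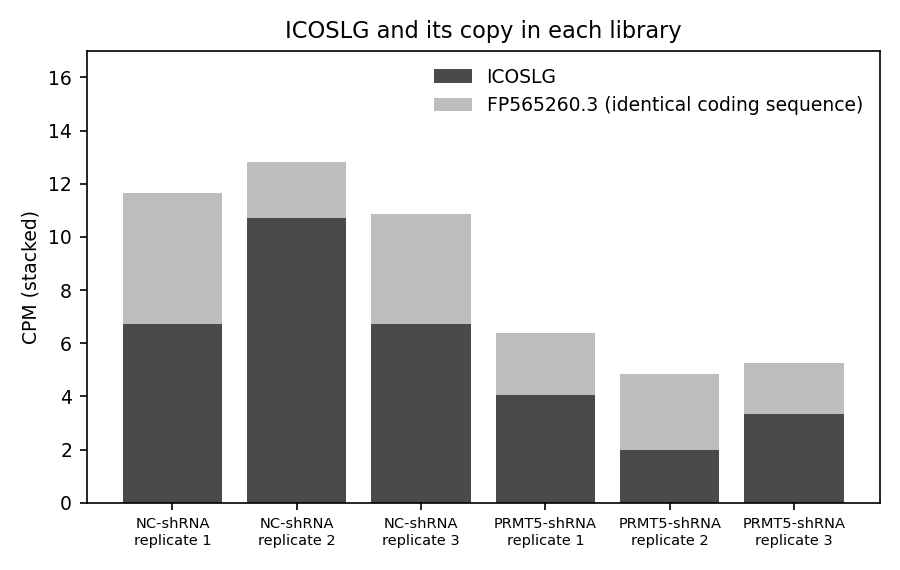
CPM of ICOSLG (dark) and of FP565260.3, which has the same coding sequence (light), stacked for each library. The stacks of the 3 PRMT5-shRNA libraries are all shorter than those of the 3 NC-shRNA libraries, while the dark share ranges from 41.4% to 83.6%.

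CD86 (ENSG00000114013, chromosome 3 from 122055366 to 122121139, plus strand), which costimulates through CD28 and is typical of antigen-presenting cells, had between 4 and 15 counts in all 6 libraries. Its values of 0.02, 0.01 and 0.06 FPKM in NC-shRNA and 0.05, 0.03 and 0.07 FPKM after knockdown overlapped. The interval of its log2 fold change, from -1.22 to 2.33 around 0.56 (edgeR adjusted p = 0.80), was the widest of the 8 ligands, and no difference was detectable at this depth. Without NC-shRNA replicate 3 the log2 fold change was 1.27, and without NC-shRNA replicate 2 it was 0.19.

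Of the inhibitory members with less defined receptors, CD276 (ENSG00000103855, chromosome 15 from 73683966 to 73714518, plus strand) was abundant but unsteady. It had 2250, 6106 and 1719 counts with NC-shRNA and 1561, 5364 and 1485 after knockdown, or 5.0, 13.48 and 4.31 against 4.55, 12.12 and 4.13 FPKM. Replicate 2 of each group stood apart, and the lower of these was 2.29 times the highest of the other 4 libraries in CPM. The log2 fold change between the groups was -0.19 with a 95% interval from -1.53 to 1.16 (edgeR adjusted p = 0.92). Leaving out NC-shRNA replicate 2 turned it to 0.51, and leaving out the replicates numbered 2 of both groups gave -0.17 (edgeR adjusted p = 0.76). Among the 8572 genes with a mean of at least 1000 counts, 5 had both libraries numbered 2 more than 2-fold above the other 4, and 1 had both more than 2-fold below them. The cause of this pattern in CD276 was not tested.

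VTCN1 (ENSG00000134258, chromosome 1 from 117143587 to 117210960, minus strand) was at 0 counts in each control library and at 8, 16 and 4 counts after knockdown. Low counts in these data gathered at multiples of 4 (between 1214 and 1319 genes per library had exactly 4 counts, against 462 to 546 with 3 and 283 to 308 with 5), so the floor was set at 3 such steps, or 12 counts, per library. The VTCN1 mean lay under this floor in both groups, with 1 library above it, and no fold is given. The mean count of CD86 also lay under the floor in both groups. CD86 passed the filter, but its fold and its ratio to CD274 rest on counts near the floor. HHLA2 (ENSG00000114455, chromosome 3 from 108296490 to 108378285, plus strand), which overlaps the pseudogene HNRNPA1P17 on the other strand, was at 0 in all 6 libraries, which allows up to 12 counts each, or between 0.171 and 0.220 CPM.

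The genes of the 2 ligands of CD226 and TIGIT, PVR and NECTIN2, lie 182592 bases apart on chromosome 19. Their levels were similar in control cells and different after knockdown in 2 of 3 libraries. PVR (ENSG00000073008, 44643798 to 44663583, plus strand) had 3419, 3228 and 2892 counts with NC-shRNA and 5230, 6958 and 2931 after knockdown. In FPKM this was 6.84, 6.40 and 6.53 against 13.74, 14.14 and 7.34, so that PRMT5-shRNA replicates 1 and 2 were far above the controls and replicate 3 was close to them. In CPM, replicate 3 exceeded the highest control library only in the fourth digit. The log2 fold change was 0.77 (standard error 0.238, 95% interval from 0.21 to 1.34) at an edgeR adjusted p of 0.29. Without PRMT5-shRNA replicate 3 it was 1.02 (edgeR adjusted p = 0.033). PRMT5 was at 38.3 CPM in that replicate and at 45.8 and 45.6 CPM in replicates 1 and 2.

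PVR overlaps CEACAM19 on the same strand, so reads of the shared part could have been given to either. CEACAM19 had 244, 252 and 249 counts with NC-shRNA and 147, 316 and 274 after knockdown, a small part of the counts of PVR.

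NECTIN2 (ENSG00000130202, 44846175 to 44889228, plus strand) had 2024, 2067 and 1631 counts with NC-shRNA and 1344, 1779 and 1633 after knockdown. FPKM was 6.60, 6.67 and 6.0 against 5.75, 5.89 and 6.66, and the groups overlapped. Its log2 fold change was -0.14 with a narrow 95% interval from -0.37 to 0.09 (edgeR adjusted p = 0.60). This interval lies below that of PVR, and the ratio of PVR to NECTIN2 itself was not tested.

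CD47 (ENSG00000196776, chromosome 3 from 108043094 to 108091862, minus strand), the ligand of SIRPA, showed the smallest spread of the ligands and a small difference. It had 1701, 1913 and 1636 counts with NC-shRNA and 1727, 2203 and 1750 after knockdown, or 2.52, 2.81 and 2.74 against 3.36, 3.32 and 3.25 FPKM. Every PRMT5-shRNA library lay above every control once scaled. The mean CPM ratio was 1.18, and the log2 fold change was 0.24 (standard error 0.0751, 95% interval from 0.06 to 0.42, edgeR adjusted p = 0.29). Its interval lies below that of CD274.

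To compare CD274 with each other ligand within the same cells, the log2 ratio of their CPM was taken in each library. CPM is not scaled to gene length, so a log2 ratio of 0 does not mean equal abundance. The ratio for ICOSLG leaves out its copy. The joint CPM of ICOSLG and the copy after knockdown was 6.39, 4.83 and 5.27, against 5.81, 4.93 and 5.20 for CD274. The ratio to ICOSLG was -1.23, -1.83 and -1.30 in NC-shRNA and 0.51, 1.3 and 0.63 after knockdown, a difference of 2.27 ± 0.310 (SE). The ratio to NECTIN2 was -3.40, -3.31 and -3.26 against -2.08, -2.37 and -2.45, a difference of 1.02 ± 0.118. The ratio to CD47 was -3.15, -3.19 and -3.27 against -2.45, -2.67 and -2.55, a difference of 0.65 ± 0.0748. In these 3 of 7 ratios the groups did not overlap, each at an exact two-sided permutation p of 0.10, the smallest possible. Over all genes with a count in each library, 75.1% had a ratio to CD274 that was higher without overlap, so 3 of 7 ratios is not more than over the genes as a whole.

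CD274 was not set apart from the remaining 4 ligands by this measure. The ratio to CD276 differed by 1.06 ± 0.730 (exact permutation p = 0.30), that to PDCD1LG2 by 0.59 ± 0.527 (exact permutation p = 0.50), that to PVR by 0.17 ± 0.316 (exact permutation p = 0.80) and that to CD86 by 0.16 ± 0.717 (exact permutation p = 1.0). All 7 differences were positive. By replicate number, the ratio to CD276 was -3.55, -4.87 and -3.34 in NC-shRNA and -2.30, -3.96 and -2.31 after knockdown, higher within each number. With 7 ratios compared, none of the p-values can pass an adjustment. PVR was the ligand for which a high level and a difference of similar size to that of CD274 came together.

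**Figure D4:**
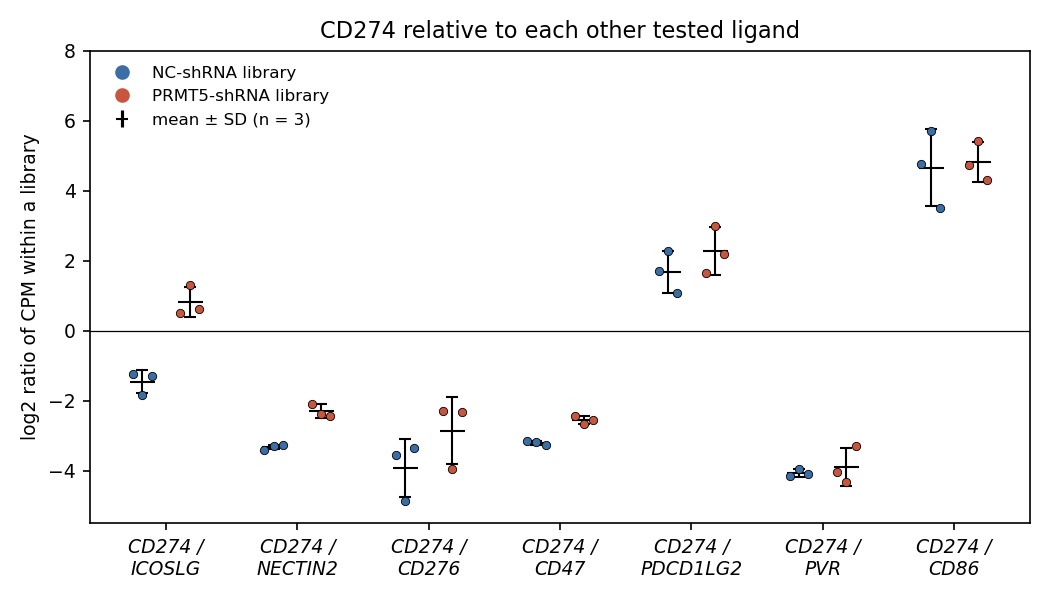
Log2 ratio of CD274 CPM to the CPM of each other tested ligand in each library, with mean and SD of 3 libraries. The ratio to ICOSLG lies below 0 in the NC-shRNA libraries and above 0 in the PRMT5-shRNA libraries. The copy of ICOSLG is left out and CPM is not scaled to gene length, so 0 is not equal abundance. The ratios to PVR, CD86, PDCD1LG2 and CD276 overlap between the groups.

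The 5 genes with the pattern most like CD274 were taken by Pearson correlation of log2 CPM over the 6 libraries. They came from 15018 genes with a mean of at least 1 CPM and a count in each library. They were ARMC10 (r = 0.995), TFE3 (0.993), CNN3 (0.993), LAMC1 (0.992) and ULK1 (0.992). The points fall into the 2 groups of libraries, so r mostly reflects the difference between the groups, whatever its size: the log2 fold change was 0.83 for ARMC10 and only 0.12 for TFE3. Among the ligands, CD47 was closest with r = 0.955 (rank 99), followed by PVR at 0.751 and PDCD1LG2 at 0.322. CD276 at -0.13 (rank 8457) showed little relation either way, while NECTIN2 at -0.59 and ICOSLG at -0.79 ran the other way.

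The interferon gamma pathway, the usual inducer of CD274, was described by 25 genes, of which 22 were tested. None passed the adjusted threshold with edgeR, DESeq2 or limma, 2 had an unadjusted p under 0.05, and none passed the looser thresholds. The groups did not overlap for 3 genes that were higher (STAT2, IRF9 and SOCS3) and 1 that was lower (CXCL11). Over all tested genes 12.8% had such a p, and 11.0% were higher and 10.7% lower without overlap. The median log2 fold change was 0.03. IRF1, a transcription factor of the pathway, had a log2 fold change of -0.01 with an interval from -0.29 to 0.27, and the kinase JAK1 had 0.05. The intervals of IRF1 and JAK1 lie below that of CD274. Those of some other genes of the list overlap it, such as STAT2 (0.12 to 0.83) and IRF9 (-0.04 to 0.59). STAT2 was higher without overlap, by 0.48 on the log2 scale (edgeR adjusted p = 0.29). SOCS3, an inhibitor of JAK signalling, was likewise higher without overlap, by 0.29 (edgeR adjusted p = 0.20). B2M, the light chain of MHC class I, was among the most abundant of the list, and its log2 fold change was -0.05. CXCL11, an interferon-induced chemokine gene, had a mean of 0.267 FPKM in NC-shRNA cells and 0.0533 FPKM after knockdown, with a wide interval of the log2 fold change from -4.59 to 0.14 (edgeR adjusted p = 0.41). CXCL9, another such chemokine gene, was listed at 0 FPKM in both groups, and so was IRF8, a member of the IRF family found in blood cells.

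Genes that act on PD-L1 transcription, mRNA stability or protein turnover were described by 30 genes, all tested. None passed the adjusted threshold with any of the 3 tools, 4 had an unadjusted p under 0.05, none passed the looser thresholds, and the median log2 fold change was -0.00. Groups did not overlap for 5 higher genes, among them GSK3B, NFKB1, HIF1A and IGF2BP1, and 3 lower genes, among them ZDHHC3 and PCBP1, beside 11.0% and 10.7% of all tested genes (12.8% had an unadjusted p under 0.05). CMTM6, which keeps PD-L1 at the cell surface, was at 9.41 FPKM in NC-shRNA and 9.30 FPKM after knockdown (log2 fold change -0.08, edgeR adjusted p = 0.69). HIF1A, a hypoxia factor that acts on the CD274 promoter, was higher by 0.23 (edgeR adjusted p = 0.32), and the mRNA-binding protein gene IGF2BP1 by 0.22 (edgeR adjusted p = 0.31). PCBP1, the gene of an RNA-binding protein, was lower, at -0.20 on the log2 scale (edgeR adjusted p = 0.33).

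Further ligands and costimulators, such as other nectins, butyrophilins and TNF family ligands, were described by 28 genes, of which 25 were tested. None passed the adjusted threshold with any of the 3 tools or the looser thresholds, 1 had an unadjusted p under 0.05, and the median log2 fold change was -0.02. The groups did not overlap for 1 higher gene (NECTIN4) and 2 lower genes (NECTIN1 and CD24), and the shares over all tested genes were again 11.0% and 10.7%, with 12.8% at that p. The most abundant were LGALS3, the gene of galectin-3, at 117 FPKM in NC-shRNA and 116 FPKM after knockdown, and HMGB1. CD24, a ligand of SIGLEC10 that like CD47 restrains phagocytosis, was at 28.7 ± 1.81 FPKM in NC-shRNA and 24.2 ± 1.41 FPKM after knockdown, at -0.30 on the log2 scale (edgeR adjusted p = 0.24). CD80, the partner of CD86 in CD28 costimulation, had 0, 10 and 3 counts in NC-shRNA and 0 in all PRMT5-shRNA libraries and was not tested.

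**Figure D5:**
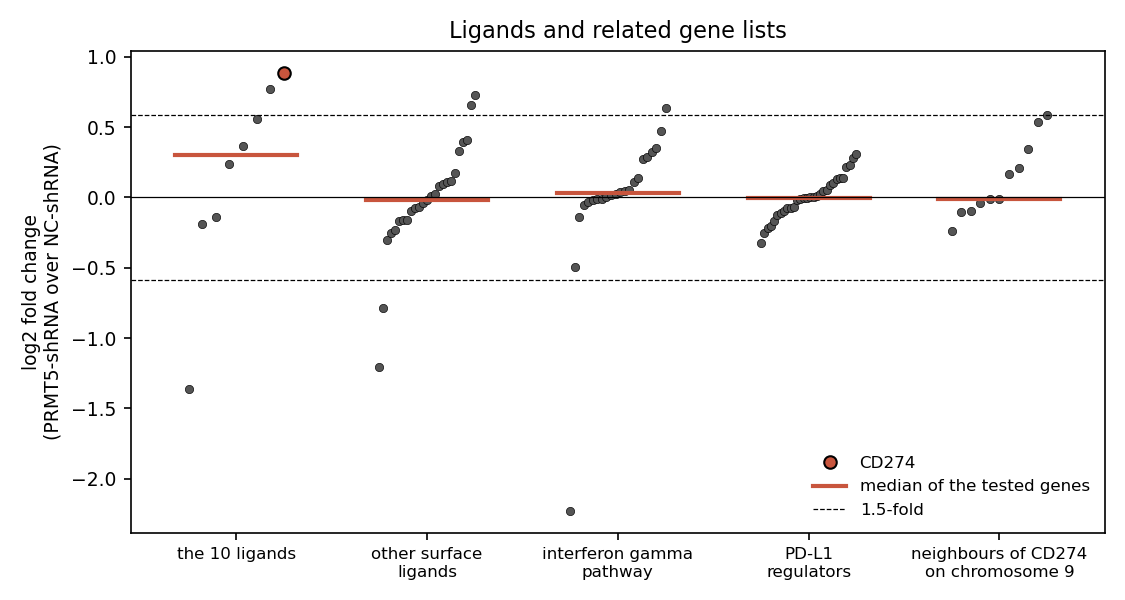
Log2 fold change, PRMT5-shRNA over NC-shRNA, of each tested gene in 5 lists (points sorted within a list), with the median of each list as a red line and 1.5-fold as dashed lines. CD274 (red point) lies above the 1.5-fold line, and the medians of the other 4 lists lie between -0.02 and 0.03.

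The receptors and soluble partners of these ligands were described by 16 genes, of which 5 were tested and 6 had 0 counts in all libraries, among them PDCD1 (PD-1), CD28, CTLA4 and ICOS. None of the 5 passed the adjusted threshold with any of the 3 tools or had an unadjusted p under 0.05. The partners that NCI-H460 cells did express were CD226, with 920, 1058 and 1022 counts against 956, 1065 and 960, SIRPA, with 551, 614 and 501 against 613, 673 and 517, and THBS1, a soluble ligand of CD47. Mean FPKM was 0.93 in NC-shRNA and 1.05 after knockdown for CD226, 1.38 and 1.71 for SIRPA, and 1.99 and 2.35 for THBS1. Their log2 fold changes were 0.12, 0.25 and 0.19. SIRPA was the 1 tested gene of the list whose groups did not overlap (11.0% of all tested genes were higher in this way).

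The line carried the keratins of an epithelial cell: KRT18 was at 151 FPKM and KRT8 at 110 FPKM in NC-shRNA cells, while EPCAM and CDH1 had at most 105 and 121 counts. The summed FPKM of 8 epithelial markers was 354 to 372 with NC-shRNA and 327 to 337 after knockdown, and KRT8 differed by -0.23 on the log2 scale (edgeR adjusted p = 0.25). The part of this in the ligand values was not tested. Of 19 blood cell markers 9 were at 0 in all libraries, including CD3E, MS4A1 and TYROBP. PTPRC, the pan-leukocyte marker, had 8, 10 and 0 counts in the PRMT5-shRNA libraries. The summed FPKM of this list was 6.59 to 8.71 with NC-shRNA and 6.57 to 7.86 after knockdown, most of it from CD68. Of 10 endothelial markers PECAM1 had 30, 5 and 8 counts against 104, 100 and 109 (edgeR adjusted p = 0.19, called by DESeq2), while CDH5 was at a log2 fold change of 0.30 and the summed FPKM was 15.4 to 16.55 against 14.8 to 15.7. None of the tested genes of the 3 marker lists passed the adjusted threshold with edgeR or limma, and 4 of the 20 had an unadjusted p under 0.05, where 12.8% of all tested genes did.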

How the data were processed

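The authors trimmed reads with cutadapt 1.9, mapped them with HISAT2 2.0.4 and quantified genes with StringTie 1.3.4d on GRCh38, per the submitters' processing notes (the methods name GRCm38, a mouse assembly). They deposited an estimated count, given as whole numbers, and an FPKM value for each gene and library. How overlapping genes, strand or reads with several matches were handled is not given in the sources used here. Total counts ranged from 53531257 to 70518401 per library. Floors cover counting error only.

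Groups and replicate numbers came from the labels. Counts were scaled by TMM, filtered with filterByExpr and tested with edgeR 4.0.16 (R 4.3.3) by the quasi-likelihood test with Benjamini-Hochberg adjustment over 20295 genes. Standard errors were derived from the F statistic. For single values the exact permutation test over libraries, two-sided, was added. DESeq2 1.42.0, limma 3.58.1 on log2(FPKM + 1) or log2(FPKM + 0.1) with a minimum mean FPKM of 0.5, other filters and scalings, counts divided by 4, a block for the replicate number and the omission of each library in turn were alternatives. The fits were tested on simulated data.

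Gene positions came from GENCODE release 29, which held 58552 of the 58825 identifiers, and upstream sequences from RefSeq. The members and gene lists were chosen with earlier results of these data known. Besides the 10 ligands, genes named from a list had an unadjusted p under 0.05 with more than 1.5-fold or without overlap of the groups, or were among its 3 most abundant. IRF1, CMTM6, CD80, EPCAM, CDH1, CEACAM19, MYC, CLDN4, FP565260.3, other non-overlapping genes and genes at 0 were named outside this rule, after their values were seen. Some genes of the lists are not reported here by name. No pair of libraries of one group was a duplicate.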

Additional observations from a re-analysis of the deposited data

How the results depend on the processing

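Over 18 alternatives the log2 fold change of PRMT5 ran from -1.69 to -1.49 and that of CD274 from 0.43 to 0.98, without a change of direction. The 0.43 was on log2(FPKM + 1), where the added 1 is near the level of CD274 itself, and log2(FPKM + 0.1) gave 0.85. PRMT5 lost its adjusted call with the replicate block (-1.62), a linear model per gene (-1.49) and both libraries numbered 2 left out (-1.69). CD274 gained one with DESeq2 (0.88), with adjusted p from 0.0023 to 0.53 over the alternatives. Leaving out 1 library at a time gave 0.82 to 0.94 for CD274. DESeq2 called 3 ligands, where it called 2.33% of the genes it gave an adjusted p. Without PRMT5-shRNA replicate 3, 1 (PVR) was called, where 0.047% of tested genes passed, so that leaving out 1 library gave 0 to 1. The 3 ligands past the looser thresholds became 1 with limma on log2(FPKM + 1), with or without its filter, and 0 with the linear model per gene. The 3 ratios without overlap became 5 on log2(FPKM + 1). For the looser thresholds and the ratios, shares over all genes were computed with the main settings only, so these counts have no share beside them. The direction reversed for PDCD1LG2 without PRMT5-shRNA replicate 1 (-0.087), where leaving out 1 library gave -0.087 to 0.68, and for CD276 without NC-shRNA replicate 2 (0.51), PRMT5-shRNA replicate 1 (0.043) or PRMT5-shRNA replicate 3 (0.082), where it gave -0.87 to 0.51. ICOSLG ran from -1.59 to -0.41, the latter on log2(FPKM + 1), and CD86 from 0.19 to 1.27 when 1 library was left out, both without a change of direction. The cause was not tested. The ICOSLG sum and the removal of both libraries numbered 2 were added after seeing the data.

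Over 19029 genes, the deviations of libraries of the same number from their group means correlated at 0.03, -0.01 and 0.03. These correlations describe the genes as a whole, and single genes could still follow the number, as CD276 did. The standard error of CD276 was 0.57 without the replicate block and 0.072 with it. Its log2 fold change with the block was -0.18 (edgeR adjusted p = 0.44). With the replicate block, CD274 was at 0.89 (edgeR adjusted p = 0.37), 0 ligands were called, and over all genes 0 were called, with 2382 at an unadjusted p under 0.05, against 14 without the block and 401 with DESeq2.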

Other observations

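Around CD274 on chromosome 9, a region often gained together with JAK2 in tumours, 11 of 15 listed genes were tested. The median log2 fold change of these neighbours was -0.01, none passed an adjusted p of 0.05 with edgeR, DESeq2 or limma, and 1 had an unadjusted p under 0.05 (12.8% of all tested genes did). JAK2, the kinase gene upstream of CD274 on the chromosome, had 357, 579 and 436 counts in NC-shRNA and 356, 441 and 445 in PRMT5-shRNA libraries (log2 fold change -0.01). UHRF2 was higher without overlap by 0.21 (edgeR adjusted p = 0.37). Over all tested genes 11.0% were higher without overlap. The abundant neighbours AK3, ERMP1 and RANBP6 had log2 fold changes of 0.34, -0.10 and -0.01.

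Of the 7 genes of PRMT5 partners and related methyltransferases, all had a negative log2 fold change, with a median of -0.10. None passed the adjusted threshold with edgeR, DESeq2 or limma, while 1 had an unadjusted p under 0.05. Over all tested genes, 9910 of 20295 were negative, 12.8% had such a p and 10.7% were lower without overlap. WDR77, the obligate partner of PRMT5, was at 26.5 FPKM in NC-shRNA and 23.2 FPKM in PRMT5-shRNA cells (log2 fold change -0.25, edgeR adjusted p = 0.43). CLNS1A, an adaptor that brings spliceosomal proteins to PRMT5, was lower without overlap at -0.15 (edgeR adjusted p = 0.34). PRMT1, the main asymmetric methyltransferase, had a log2 fold change of -0.10.

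Some abundant genes sat at clearly different levels in libraries of one group, as CD276 and PVR did. MYC, a regulator of CD274 transcription, had 893, 16102 and 961 counts in NC-shRNA and 813, 756 and 17121 in PRMT5-shRNA libraries, so that 1 library of each group was higher than the others by more than 10-fold, and these 2 libraries bear different replicate numbers. Among the epithelial markers, CLDN4 had 1029, 935 and 776 counts against 809, 14 and 103. Of 8572 genes with a mean of at least 1000 counts, 497 (5.80%) differed more than 2-fold between the libraries of one group. The cause was not tested.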
